A study of Mus musculus with 2 samples.

Results

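The genes described here encode the contractile apparatus of smooth muscle and the proteins bound to its thin filaments, and were compared between bEnd3 cells with retroviral Smad4-siRNA and with control-siRNA. The members are Acta2, Actg2, Tagln, Cnn1, Cnn2, Myl9, Myh11, Tpm1, Tpm2 and Cald1, which is 10 of the 18193 genes that had a probe set of their own. They were represented by every probe set annotated to exactly 1 gene, that gene being a member, which gave 23 of 34945 such probe sets. bEnd3 is a line of BALB/c mouse brain microvessel endothelial cells transformed by polyoma middle T antigen. Both groups were infected with retrovirus from PLAT-E packaging cells, carrying the Smad4-siRNA in one group and the control-siRNA in the other, and both were selected with puromycin. RNA from 2 infections was pooled for 1 Affymetrix array per group. There were thus no replicates and no test between groups, and every value is limited in precision by the number of arrays. The arrays are called the array labelled Smad4-siRNA and the control array.

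In smooth muscle, force comes from myosin, of which Myh11 encodes the heavy chain and Myl9 a regulatory light chain, sliding along filaments of the actins encoded by Acta2 and Actg2. The tropomyosins of Tpm1 and Tpm2 lie along these filaments, and caldesmon (Cald1), the calponins (Cnn1, Cnn2) and transgelin (Tagln, also called SM22α) bind to them. Many of these genes carry CArG boxes, the binding sites of serum response factor (SRF), and Acta2 and Tagln are widely used as markers of TGF-β-driven mesenchymal change in endothelial cells, a process in which Smad4 joins the receptor-activated Smads to act on target genes.

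The labels and the measured transcripts disagreed in part. The 3 Smad4 probe sets had log2 ratios of 0.25, 0.58 and 0.35 (array labelled Smad4-siRNA minus control array) after quantile normalization, and of -0.12, 0.21 and -0.07 in the deposited values, so the targeted transcript was not lower as its label would have it. The signal of Xist was 4476 against 20.7 on the control array, and that of the Y-linked Eif2s3y 0.349 against 324. Kdm5d and Uty, also Y-linked, reached the floor only on the control array. Both arrays are labelled as 1 cell line, but transcripts that differ by sex were each found on 1 array only, so a difference in the origin of the cells and the siRNA cannot be told apart in any ratio given here. Of 16 endothelial markers, 15 reached the floor (the median signal of an array, 22.8) on the control array and 8 did on the other. On the array labelled Smad4-siRNA 14 were at least 2-fold lower, beside 15.8% of genes that reached the floor on at least 1 array. Among the 14, Pecam1, Tek, Tie1, Emcn, Esam, Cldn5 and Erg passed only through the control array, so the filter fixed their direction. Flt1, also counted, had probe sets with log2 ratios from -1.22 to 0.14. The summed signal of the 16 was 22036 on the control array against 855 on the array labelled Smad4-siRNA. In the order of labelled array, then control array, that of 12 fibroblast markers was 24432 and 1002, and that of 10 pericyte markers 1801 and 59.1. From here on, paired signals are given in that order, and "higher" and "lower" state only the direction on the array labelled Smad4-siRNA. The part of these differences in the results on contractile genes was not tested, and in pooled RNA fewer cells of a type and less RNA per cell cannot be told apart.

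The contractile genes fell into 3 kinds of pattern. Acta2, Tagln, Myl9 and Tpm2 were at least 4-fold higher on the array labelled Smad4-siRNA (6.78% of genes that reached the floor on at least 1 array) and were near or below the floor on the control array. Cnn2, Tpm1 and Cald1 were well above the floor on both arrays and lay near or within 2-fold. Cnn1, Myh11 and Actg2 were below the floor on both arrays, as were 36.3% of all genes. In counts, 5 members were at least 2-fold higher (16.0% of the 11581 genes that reached the floor on at least 1 array), 0 were lower by 2-fold or more (15.8% of those genes) and 2 lay within 2-fold, among the 7 that reached the floor on at least 1 array. Of these 7, 3 passed only through the array labelled Smad4-siRNA, so their direction was fixed by the filter. Genes that passed in this way made up 9.44% of all that passed. Among the 4 members measured on both arrays, 2 were at least 2-fold higher (12.6% of 9479 genes measured on both) and 0 lower by as much (15.0%). The median log2 ratio of those 4 was 0.97, beside -0.15 for all genes measured on both arrays. With the 3 bounds included the median of the 7 was 2.49, which is the bound of Myl9, beside -0.11 for all genes on at least 1 array. Cnn2 (log2 ratio 1.10) and Tpm1 (0.85) lay just above and just below 2-fold. Where 1 side was below the floor, the bright signal was divided by the floor and the result is given as a bound ("at least").

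**Figure D1:**
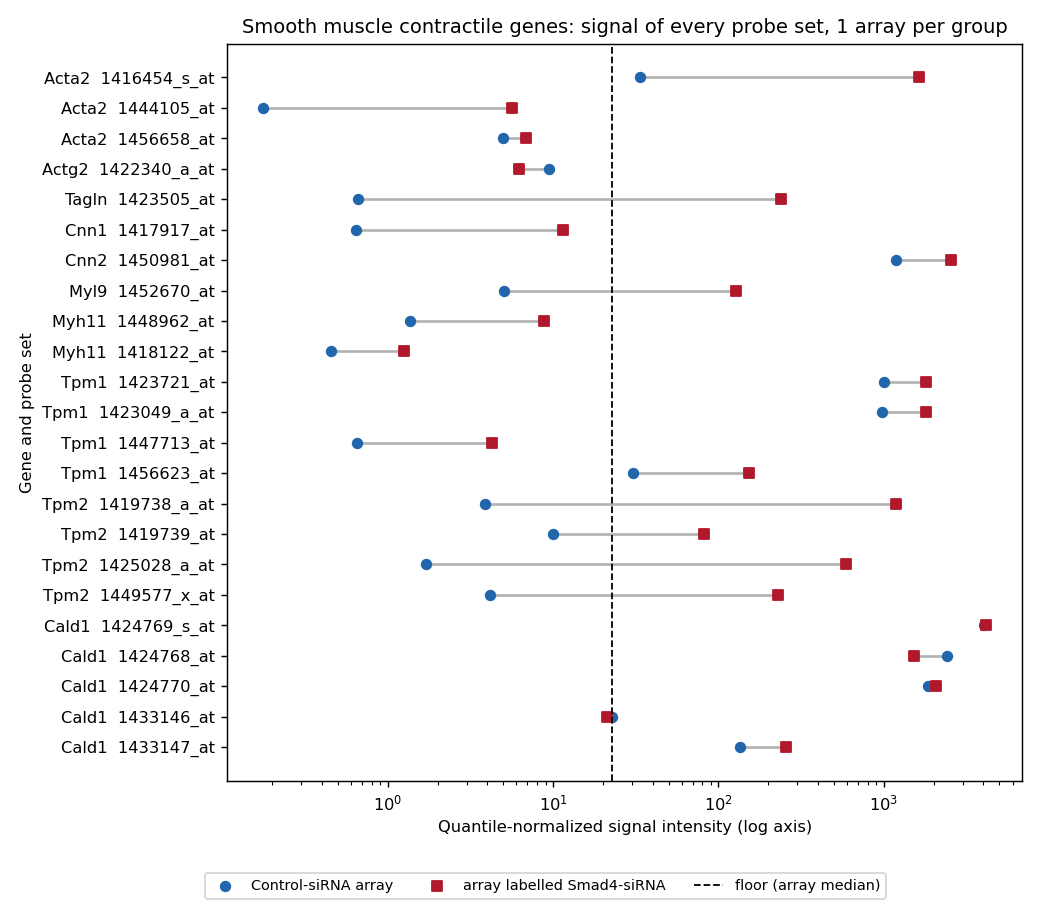
Quantile-normalized signal intensity (log axis) of all 23 probe sets of the 10 genes, with the control array as circles, the array labelled Smad4-siRNA as squares and the floor of 22.8 as a dashed line. The squares of Tpm2, Tagln, Myl9 and the first Acta2 probe set lie far to the right of their circles, the pairs of Cald1 lie close together, and all probe sets of Cnn1, Myh11 and Actg2 lie left of the floor on both arrays.

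Promoters of the members are shown for their CArG boxes, since SRF acts through these. Sequences came from RefSeq (GRCm38.p6), which held 8 promoters for 7 of the 10 members. Tagln, Myh11 and Actg2 had no entry. Each line gives the 200 bases before the start, 5′ to 3′ on the gene's strand, with capitals for a CArG box or for a like sequence in which 1 of the 6 central A or T bases is a G or C.
Acta2, chr19:34255374-34255573, minus strand: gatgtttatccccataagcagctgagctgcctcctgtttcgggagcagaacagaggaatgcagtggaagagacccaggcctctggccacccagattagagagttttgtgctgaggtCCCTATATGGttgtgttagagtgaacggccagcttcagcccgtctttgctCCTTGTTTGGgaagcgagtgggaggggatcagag
Myl9, chr2:156775264-156775463, plus strand: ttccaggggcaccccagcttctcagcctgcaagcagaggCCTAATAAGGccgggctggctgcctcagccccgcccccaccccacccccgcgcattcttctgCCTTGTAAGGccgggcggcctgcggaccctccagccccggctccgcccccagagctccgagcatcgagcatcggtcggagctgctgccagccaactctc
Cnn2, chr10:79988400-79988599, plus strand: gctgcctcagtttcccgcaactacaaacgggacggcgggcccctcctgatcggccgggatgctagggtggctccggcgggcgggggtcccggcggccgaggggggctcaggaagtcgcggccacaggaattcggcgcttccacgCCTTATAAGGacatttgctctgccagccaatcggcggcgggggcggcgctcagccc
Tpm2, chr4:43523555-43523754, minus strand: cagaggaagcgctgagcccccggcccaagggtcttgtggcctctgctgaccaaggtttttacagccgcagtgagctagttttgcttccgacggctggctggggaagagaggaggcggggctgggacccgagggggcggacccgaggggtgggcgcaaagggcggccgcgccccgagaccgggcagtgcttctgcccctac

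In the 250 bases before the start, read on both strands, a strict CArG box was found in Myl9 and Cnn2, and 1.47% of all 32851 promoters hold one in a window of this length. The Myl9 box spans bases 161 to 152 before the start and the Cnn2 box bases 56 to 47. With 1 G or C allowed, a form chosen after the sequences were seen and held by 8.59% of all promoters, Acta2 had 2 matches, at bases 84 to 75 and 34 to 25, and Myl9 a further one at bases 99 to 90. Tpm2, Tpm1, Cald1 and Cnn1 had no match of either form in the window. Thus Acta2 and Myl9, which were 48.8-fold and at least 5.63-fold higher, hold such letters, Cnn2 holds them beside a ratio of 2.14-fold, and Tpm2, at least 52.3-fold higher, does not. CATTCC, the core of the MCAT element bound by TEAD factors, was found in Acta2, Tpm1 and the first of the Cald1 promoters (12.6% of all promoters). CAGAC, which is part of Smad-binding sequences, was found in Acta2 and the same Cald1 promoter (42.2% of all). These are matches of letters, and binding to them was not tested in these data.

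The actin of vascular smooth muscle differed most among the members measured on both arrays. In the probe set 1416454_s_at, Acta2 had signals of 1634 and 33.5, the latter, from the control array, only just above the floor. This is a 48.8-fold difference, a log2 ratio of 5.61, and the values as deposited were 1442 and 30.9. It ranked 12 from the highest among the 9479 genes measured on both arrays. The other 2 Acta2 probe sets were below the floor on both arrays, with 5.61 and 0.177 in the first and 6.86 and 5.00 in the second, so the Acta2 result rests on 1 probe set, whose suffix marks sequence shared with other transcripts. Actg2, the actin of visceral smooth muscle, had signals of 6.24 and 9.49 and gave no fold. The striated muscle actins Acta1 and Actc1, close in sequence to Acta2, were below the floor on both arrays, and the cytoskeletal actins Actb and Actg1 had log2 ratios of -0.33 and -0.35.

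Of the myosin genes, the light chain was seen on 1 array and the heavy chain on neither. Myl9 had signals of 128 and 5.06, with the control array below the floor, and was at least 5.63-fold higher, a bound that shrank to a log2 ratio of 0.01 with a floor at the 75th percentile of each array. Myh11, a late and selective marker of differentiated smooth muscle, had 8.82 and 1.37 in its brighter probe set and 1.25 and 0.452 in the other. All 4 values are below the floor, so no fold is given. The non-muscle heavy chain genes Myh9 and Myh10 had log2 ratios of 0.14 and 0.63, with Myh9 at -0.12 as deposited, and the light chain genes Myl6, Myl12a and Myl12b lay between -0.29 and 0.27.

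The tropomyosin genes differed from each other. All 4 probe sets of Tpm2 were below the floor on the control array and above it on the other. The brightest, 1419738_a_at, had signals of 1192 and 3.87, which is at least 52.3-fold higher. The others were at least 25.9-fold (590 against 1.70), 10.1-fold (229 against 4.17) and 3.61-fold (82.2 against 9.99) higher. The smallest of these bounds came from 1419739_at, the only Tpm2 probe set without a letter suffix. The size of the bound thus varied widely by probe set. Tpm1 was above the floor on both arrays. Its brightest probe set had 1802 and 998, a log2 ratio of 0.85, and the next had 1788 and 978, a log2 ratio of 0.87. A further Tpm1 probe set, 1456623_at, had 153 and 30.6, the latter only just above the floor, and a log2 ratio of 2.32. The SD over these 3 probe sets was 0.84 on the log2 scale, against a pooled SD of 0.47 between probe sets over 4546 genes, and the remaining Tpm1 probe set was below the floor on both arrays (4.29 and 0.652). The tropomyosin genes of most cells had log2 ratios of -0.59 (Tpm3, with -1.80 in its lowest probe set) and -0.28 (Tpm4), which were below 0 in each of the 4 scalings tried.

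Among the proteins that bind the thin filament, Tagln stood out. Its single probe set had signals of 238 and 0.661, and it was at least 10.4-fold higher, although with a floor at the 75th percentile of each array the log2 bound fell to 0.90 and under 2-fold. Cnn1, the calponin of differentiated smooth muscle, had 11.4 and 0.642, both below the floor. Cnn2, a calponin also made by many non-muscle cells, had 2549 and 1191, which is 2.14-fold higher with a log2 ratio of 1.10. It fell short of 2-fold in the values as deposited (0.76) and with these centred on their median (0.88). Cnn3, the remaining calponin gene and also widely expressed, had log2 ratios from -0.55 to 1.06 over 6 probe sets, the brightest giving 0.65.

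Caldesmon, which is made in a smooth muscle form and a form found in most cells, showed no common direction. The brightest of 5 Cald1 probe sets had 4166 and 4022, a log2 ratio of 0.05 that was -0.09 as deposited. The probe set 1424768_at was lower (1522 against 2416, log2 ratio -0.67), 1433147_at was higher (257 against 135, 0.93) and 1424770_at lay between (2080 against 1846, 0.17). The last, 1433146_at, was at the floor (21.3 and 22.9). The SD over the 4 probe sets measured on both arrays was 0.65, and the files do not say which transcript form each probe set detects.

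Counted by probe set, 16 of the 23 reached the floor on at least 1 array. Of these, 9 were at least 2-fold higher (14.3% of the 21704 such probe sets of all genes) and 0 were lower by as much (15.8%). Of the 9, 6 (Tagln, Myl9 and the 4 of Tpm2) passed only through the array labelled Smad4-siRNA, so that the filter fixed their direction. The remaining 3, of Acta2, Cnn2 and Tpm1, are among the 9 probe sets measured on both arrays. The share called higher over all probe sets measured on both arrays was not computed, so these 3 are not read further. The control signals of Acta2 (33.5) and of this Tpm1 probe set (30.6) were only just above the floor. Probe sets of a gene share their RNA and are not replicates. The other 7 were below the floor on both arrays and are given no direction.

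**Figure D2:**
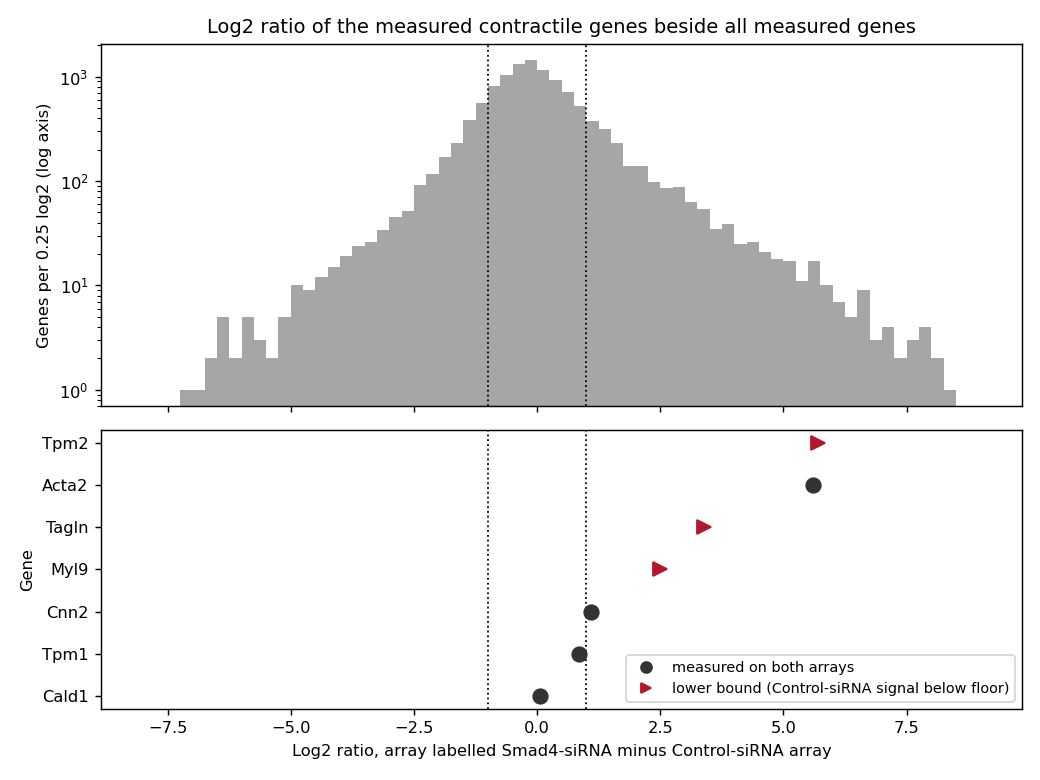
The upper panel counts all 11581 genes that reached the floor on at least 1 array by log2 ratio, in steps of 0.25 on a log axis, and the lower panel places the 7 contractile genes that did so, with arrowheads for lower bounds and dotted lines at 2-fold. Tpm2 (5.71) and Acta2 (5.61) lie in the sparse right tail, whereas Cald1 (0.05) and Tpm1 (0.85) lie within the bulk of all genes.

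The factors that act on CArG boxes were compared by their own transcripts. Srf had a log2 ratio of -0.20 (159 against 183), and the gene of its smooth muscle coactivator Myocd was below the floor on both arrays (9.36 and 5.13). Of the actin-regulated coactivators, Mrtfa was 2.43-fold higher (248 against 102) and Mrtfb had a log2 ratio of -0.25. Csrp2, a LIM-domain partner of SRF, was 3.77-fold higher (972 against 258). In the whole list of 17 transcriptional regulators, 15 reached the floor on at least 1 array, with a median of 0.22. Of these, 4 were at least 2-fold higher (16.0% of all genes on at least 1 array), 1 was lower (15.8%) and 10 lay between. The others that were higher, named after their values were seen, were Prrx1, a mesenchymal homeobox factor (at least 49.2-fold, 1120 against 6.76), and Gata6 (at least 8.07-fold). Prrx1 and Gata6 passed only through the array labelled Smad4-siRNA, so the filter fixed their direction. Smad2 was 2.21-fold lower, with its probe sets between -1.15 and -0.37.

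Other genes of the smooth muscle apparatus had no common direction. Of 16 listed partners, 15 had a probe set of their own and 10 reached the floor on at least 1 array, of which 3 were higher by 2-fold or more, 3 were lower by as much, 3 measured on both arrays lay between and 1 (Des) had a bound under 2-fold, and the median was -0.23. Over all genes on at least 1 array, the shares were 16.0% higher and 15.8% lower by 2-fold or more. Mylk, whose product phosphorylates the myosin light chain, was 4.75-fold lower (69.0 against 328), its probe sets giving log2 ratios of -2.95 and -2.25. Smtn, which encodes the actin-binding smoothelin, was 3.52-fold lower (50.4 against 177). Itga1, a collagen-binding integrin gene of smooth muscle, was 4.10-fold higher (145 against 35.3), with its control signal near the floor. The integrin gene Itga8 was at least 11.1-fold and Fhl1 at least 2.29-fold higher, and Tns1 was 2.22-fold lower, the last 3 named after their values were seen. Itga8 and Fhl1 passed only through the array labelled Smad4-siRNA, so the filter fixed their direction. Des, the intermediate filament desmin, had 13.7 and 36.2. It reached the floor only on the control array and was at least 1.59-fold lower. Lmod1, an actin nucleator of smooth muscle, was below the floor on both arrays.

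Signalling genes that set the contractile tone had calls in both directions, but those higher were all bounds. Of 13 with a probe set of their own, 10 reached the floor on at least 1 array. Of these, 3 were at least 2-fold higher (16.0% of all genes on at least 1 array), 1 was lower (15.8%) and 6 lay between. Dapk3, a kinase of the light chain, was 2.93-fold lower (179 against 525). Ppp1r12b, a targeting subunit of the light chain phosphatase, had a log2 ratio of 0.82. Those higher by bounds were the calcium channel gene Cacna1c (at least 7.78-fold), the cyclic GMP-dependent kinase gene Prkg1 (at least 3.30-fold) and Pde5a (at least 2.42-fold), all named after their values were seen. The 3 genes higher by bounds passed only through the array labelled Smad4-siRNA, so the filter fixed their direction. Rhoa and Rock1, which restrain the light chain phosphatase, had log2 ratios of -0.41 and -0.28.

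The widely expressed relatives of the members served as a comparison within the same protein families. All 10 were above the floor on both arrays. In their brightest probe sets 0 were higher and 0 lower by 2-fold or more, which held in each of the 4 scalings tried. Of all genes measured on both arrays, 12.6% were higher and 15.0% lower by as much. At those shares few of 10 genes would be called. Their log2 ratios ran from -0.59 for Tpm3 to 0.65 for Cnn3, with a median of -0.07. Of 19 striated muscle genes, 14 were below the floor on both arrays and the other 5 lay within 2-fold or had bounds under it. The 1 of these measured on both arrays was Tnnc1, with a log2 ratio of -0.56.

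**Figure D3:**
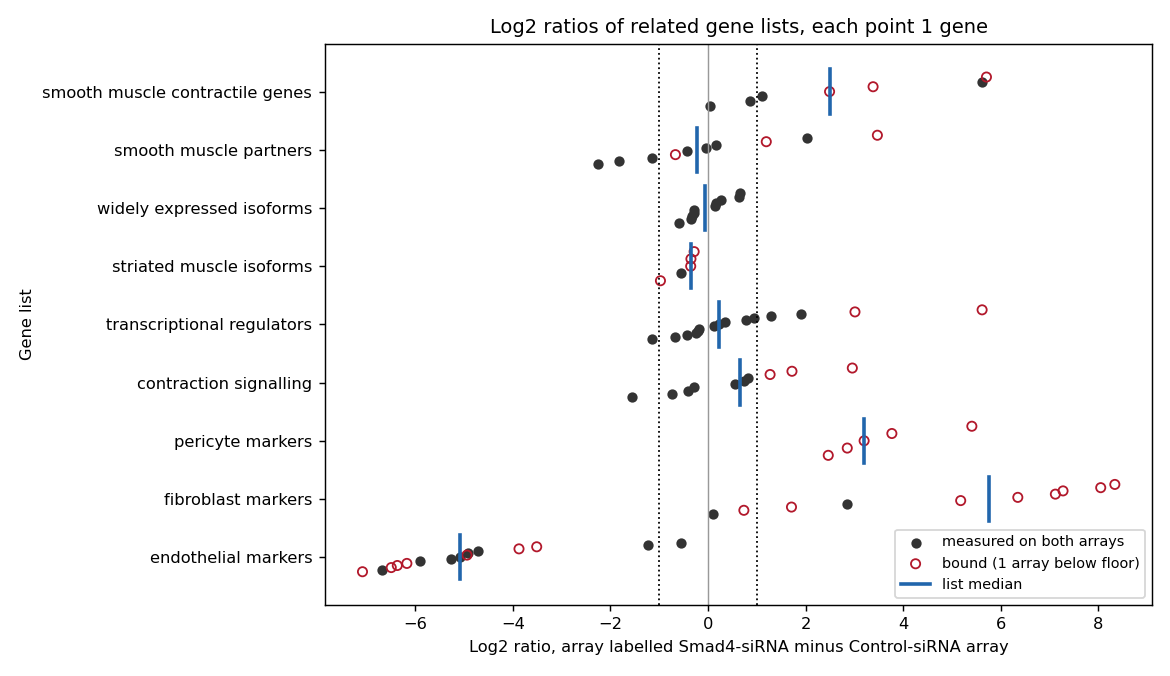
Log2 ratio of each gene that reached the floor on at least 1 array, by list, with filled points for genes measured on both arrays, open points for bounds, bars for list medians and dotted lines at 2-fold. The contractile genes (median 2.49) spread from 0.05 to 5.71, the widely expressed isoforms (median -0.07) stay within 2-fold, and the fibroblast (median 5.77) and pericyte (median 3.20) markers lie to the right and the endothelial markers (median -5.09) to the left.

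Among markers of other cells that make contractile proteins, most of those called higher passed only through the array labelled Smad4-siRNA. The filter thus fixed their direction. Of 10 pericyte markers, 0 reached the floor on the control array and 5 on the other, and all 5 were at least 2-fold higher by bounds. The others, among them Rgs5, Kcnj8 and Abcc9, which are defining markers of brain pericytes, were below the floor on both arrays. Of 12 fibroblast markers, 2 reached the floor on the control array and 10 on the other. Lum and Thy1 were below it on both. Those at least 2-fold higher were 8, all but Pdgfra by bounds, beside 16.0% of all genes on at least 1 array. Pdgfra was 7.24-fold higher and S100a4 differed by a log2 ratio of 0.09, with -0.31 as deposited. Among the endothelial markers Nos3 was 102-fold and Ramp2 59.8-fold lower. Of the leukocyte markers, 5 had a probe set and 2 reached the floor on at least 1 array. Of these 2, 1 was at least 2-fold lower, beside 15.8% of all genes on at least 1 array. This was Cd68, by 23.3-fold, while Csf1r had a log2 ratio of -0.28. Epithelial markers were below the floor on both arrays except for Epcam (81.7 against 8.54). Of the neural markers only Sox10 reached the floor, on the control array (22.3 against 33.1). Its signal on the other array was just below the floor, and it was at least 1.45-fold lower. Whether these markers and the contractile genes came from the same cells was not tested.

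Genes that lie next to the members on their chromosomes were compared, since runs of neighbours can differ together. The nearest genes with a probe set were taken from the order of genes in RefSeq (GRCm38.p6). Of the 10 neighbours of the 5 members that were at least 2-fold higher, 3 were at least 2-fold higher, 0 lower, 6 within 2-fold and 1 below the floor on both arrays. Acta2 lay between Stambpl1 (2.76-fold higher) and Fas (at least 9.61-fold higher), and Sidt2 beside Tagln was 2.22-fold higher. Tln1 beside Tpm2 had a log2 ratio of -0.31, and Dlgap4 and Tgif2 around Myl9 had 0.06 and 0.22. Over all 20 neighbours of the 10 members, 4 were at least 2-fold higher, among them Tln2 beside Tpm1 (at least 8.15-fold), and 1 was lower, Ecsit beside Cnn1 (3.09-fold, 43.6 against 135). Of the neighbours called higher, Fas and Tln2 passed only through the array labelled Smad4-siRNA, so the filter fixed their direction. Of all genes on at least 1 array, 16.0% were at least 2-fold higher and 15.8% lower.

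The size of the large differences depended on the processing, of which 8 alternatives were run. Tagln, Myl9 and Tpm2 rest on bounds, whose sign a change of floor or pseudocount could not turn. Over the alternatives, the log2 ratio of Acta2 ran from 3.68 to 5.88 in the 7 that gave it a value, that of Tagln from 0.90 to 5.41, that of Myl9 from 0.01 to 4.52 and that of Tpm2 from 1.85 to 7.73. The lowest values of Acta2, Tagln and Myl9 came from a floor at the 75th percentile of each array, which ends the 2-fold call of Tagln and Myl9. Cnn2 ran from 0.76 to 1.18, Tpm1 from 0.48 to 0.91 and Cald1 from -0.09 to 0.29. With 1 array per group these ranges describe the processing and hold no error between cultures.

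**Figure D4:**
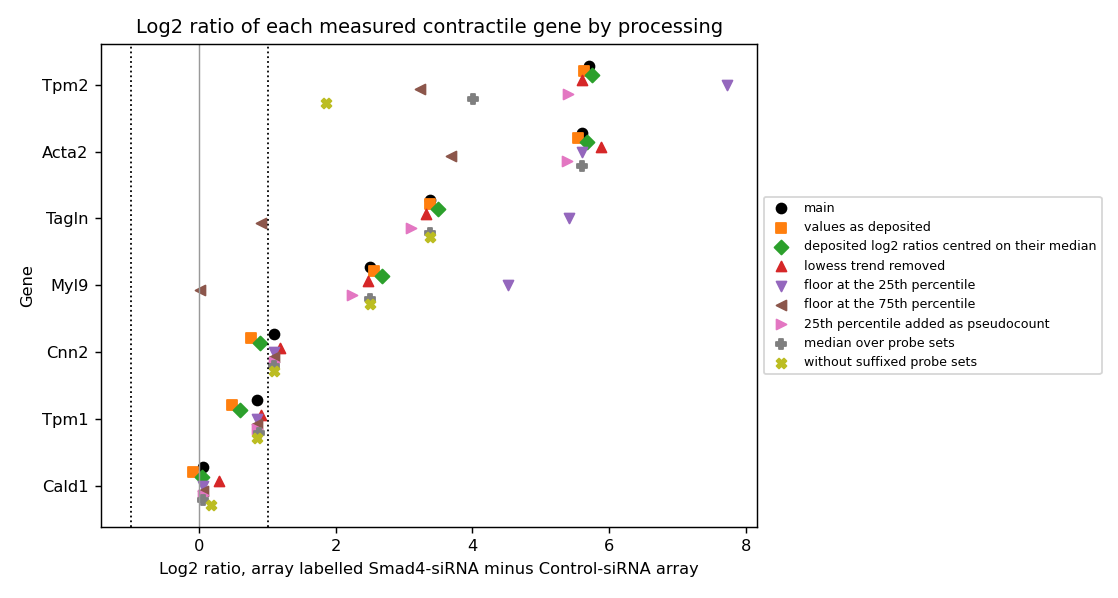
Log2 ratio of each of the 7 measured contractile genes under the main processing (black circles) and 8 alternatives, with dotted lines at 2-fold. Tpm2, Tagln and Myl9, which were below the floor on the control array, shift widely with the floor, whereas Cnn2, Tpm1 and Cald1 stay within a narrow range.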

How the data were processed

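The authors deposited linear signal intensity for each probe set. MAS5 is named in the submitters' processing notes, with no version, scaling target or detection calls given in the sources used here. Of 45101 probe sets, 64 controls were left out. Names followed GEO's platform annotation, with symbols brought up to date through RefSeq. Trimmed means (2% at each end) were 114 and 138, a difference of -17.2% where up to 5% was allowed, so log2 signals were quantile normalized. Each array's median, 22.8, served as the floor. Where a gene had several probe sets, the one with the highest mean of both log2 signals stood for it. A side below the floor gave a bound, and no fold was given where both were below. Scalings tried were quantile normalization, the deposited values, median centring and lowess. Members and lists were chosen with earlier results of these data known. Named were all members, Mylk, Des, Lmod1, Smtn, Srf, Myocd, Smad4 and, per list, the 2 genes farthest from 0 among those on both arrays. Other genes were chosen after their values were seen, or as family members, chromosomal neighbours or textbook regulators. The procedure was tested on simulated data with changes planted only in genes bright on the control array. Bounds from a control signal below the floor were therefore not covered. Python 3.11.15, numpy 2.4.6, pandas 2.3.3 and statsmodels 0.14.6 were used.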

Additional observations from a re-analysis of the deposited data

How the results depend on the processing

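The alternatives were 8 settings of scaling, floor, pseudocount and choice of probe set. The count of members at least 2-fold higher was 5 and stayed between 4 and 6 except with a floor at the 75th percentile, where it was 3 and where Tagln and Myl9 were no longer called. No member was at least 2-fold lower (0) in any of the 8. The median log2 ratio of 2.49 was 1.06 with a floor at the 25th percentile, where all 10 members entered, 0.90 with one at the 75th, and 1.47 without suffixed probe sets, where Acta2 dropped out and 6 members were left. With the 25th percentile as floor Cnn1 and Myh11 had log2 bounds of 1.03 and 0.65, as their control signals were below that floor too. Both passed only through the array labelled Smad4-siRNA, so the filter fixed their direction. The count of 6 came from this floor and includes Cnn1. Actg2, above this floor on both arrays, had a log2 ratio of -0.61. Cald1 was below 0 (-0.09) only as deposited. The share of all genes called higher and lower was 16.0% and 15.8%, and 15.2% and 19.8% as deposited. Control signals below the floor limit Tagln, Myl9 and Tpm2 to bounds. No paired analysis was possible because each group had 1 array.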
